A study of Homo sapiens with 6 samples.

Results

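The kallikreins are secreted serine proteases encoded side by side on the long arm of chromosome 19, the largest run of protease genes known in the human genome. Each is made as an inactive proenzyme, and most then cleave after arginine or lysine, as trypsin does, while KLK3 cleaves more like chymotrypsin. Luminal cells of the prostate express KLK3, KLK2 and KLK4 and secrete their products into seminal plasma, whereas KLK5, KLK8, KLK10 and KLK11 are better known from skin and glandular epithelia. Described here are 10 kallikrein genes, KLK1, KLK2, KLK3, KLK4, KLK5, KLK6, KLK8, KLK10, KLK11 and KLK15, of 61279 genes quantified by RNA-seq. They were selected on their measured levels under both labels in these 6 libraries, so those levels are given as a description and carry no test.

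By their titles the libraries came from T47D, an established cell line of hormone receptor-positive breast cancer with no engineered change. Cells were given MI-503, which blocks the binding of menin to the histone methyltransferase MLL1, at 4 μmol/L for 24 hours, or the solvent DMSO for 24 hours. There were 3 libraries of each label, given as biological replicates of this 1 line, with 17404736 to 22168525 reads each. The question put to these data was how menin-MLL1 inhibition changes gene expression in these cells.

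The libraries labelled DMSO did not look like T47D, and this bears on every value that follows. ESR1, the estrogen receptor that defines this cell line, had 4298, 4595 and 4975 reads in the libraries labelled MI-503 and 0, 4 and 0 reads in those labelled DMSO. The summed level of 20 luminal breast markers was 12642 to 15588 CPM (reads scaled to library size and between libraries) under the label MI-503 and 686 to 901 CPM under the label DMSO. In the test described below, 16 of the 17 luminal markers tested were called higher under the label MI-503, beside 31.7% of all genes tested. The marker lists were chosen with earlier results of these data known. TBX3 alone was called lower, at 27.4 CPM under the label MI-503 and 398 CPM under the label DMSO. The summed level of 20 prostate markers, none of them a kallikrein, was 355 to 396 CPM under the label MI-503 and 2851 to 4464 CPM under the label DMSO. HOXB13, FOLH1 and TRPM8 were among the prostate markers present at high level under the label DMSO, and 1 prostate marker was at 0 in each of those libraries against 5 to 7 in each library labelled MI-503. Of the 19 basal and squamous markers found, 11 or 12 were at 0 in each library labelled MI-503 and 9 to 12 in each labelled DMSO. An effect of the drug and a difference in the cells behind both labels cannot be told apart in these data, and in bulk RNA neither can fewer cells of a type and less RNA per cell. Mitochondrial genes took 2.84% to 5.34% of the reads under the label MI-503 and 1.38% to 7.18% under the label DMSO. The highest share was in DMSO replicate 3, which also stood apart in the transcripts of several kallikreins, described further on.

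Across all genes, edgeR's quasi-likelihood test called 62.9% of 16442 genes at an adjusted p under 0.05. Of all 16442 genes, 31.7% were called higher and 31.2% lower under the label MI-503. Of the 10 kallikreins, 7 had TPM that did not overlap between the labels, as did 46.0% of the 28773 genes with a read in any library, and since the choice of members used this contrast nothing is read from that count. Of the 10 members, 7 passed the filter on low counts, and KLK5, KLK6 and KLK11 did not. The mean CPM was higher under the label MI-503 for KLK1, KLK5, KLK8, KLK10 and KLK11 and higher under the label DMSO for KLK2, KLK3, KLK4 and KLK15, and KLK6 had no read in any library.

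**Figure D1:**
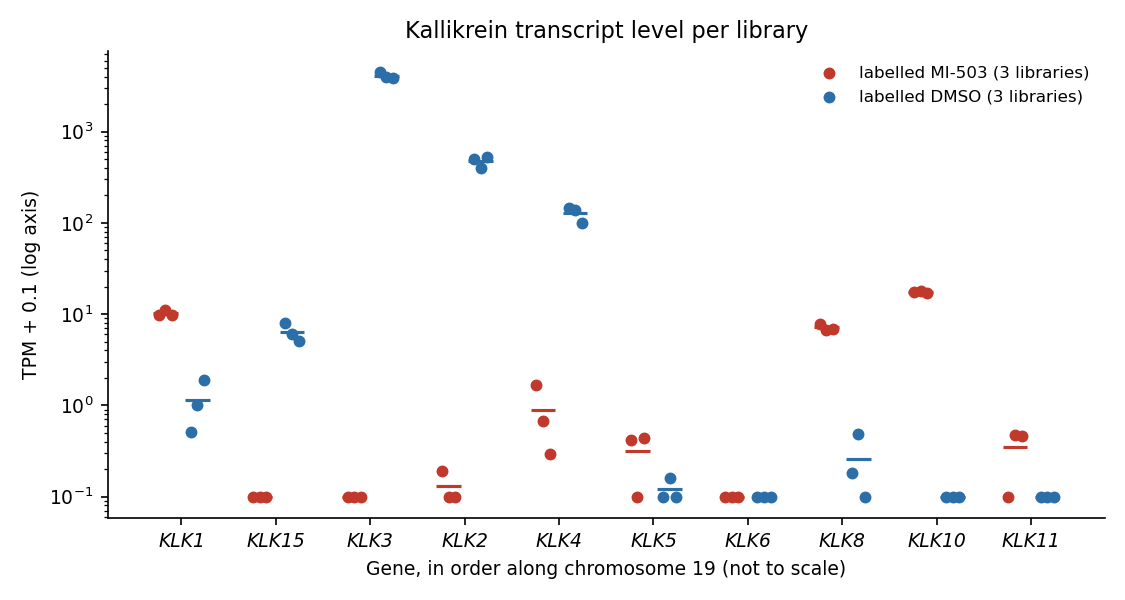
Level of each kallikrein in TPM (a relative abundance that takes transcript length into account) plus 0.1, on a log axis, in the 3 libraries labelled MI-503 (red, left) and the 3 labelled DMSO (blue, right), with the mean as a bar. KLK3 stood at 3848 to 4492 TPM under the label DMSO with no read under the label MI-503, while KLK10 stood at 17.1 to 17.7 TPM under the label MI-503 with no read under the label DMSO.

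Together the 10 genes summed to 36.8, 36.2 and 34.5 TPM in the libraries labelled MI-503, against 5148, 4530 and 4483 TPM in those labelled DMSO. As a share of all reads this was 0.0030%, 0.0028% and 0.0026% under the label MI-503 and 0.432% in each library labelled DMSO. The make-up of the sum had no leading gene in common. KLK10 gave 47.3% to 49.6% of the summed TPM under the label MI-503, with KLK1 and KLK8 next, and KLK3 gave 85.8% to 87.9% under the label DMSO, with KLK2 and KLK4 next.

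KLK3 and KLK2 are neighbours on the forward strand and came from 1 ancestral gene by duplication. KLK3 encodes prostate-specific antigen, which liquefies semen by cutting semenogelins, and lies at chr19:50854915-50860764 of GRCh38. The promoters are shown here because both genes were among the highest under the label DMSO and at or near 0 reads under the label MI-503. The 250 bases before the KLK3 start site in RefSeq on GRCh38.p14 (chr19:50854665-50854914, forward strand) are printed with TTTATA, the reverse complement of the TATA box letters TATAAA, in capitals.
KLK3 promoter: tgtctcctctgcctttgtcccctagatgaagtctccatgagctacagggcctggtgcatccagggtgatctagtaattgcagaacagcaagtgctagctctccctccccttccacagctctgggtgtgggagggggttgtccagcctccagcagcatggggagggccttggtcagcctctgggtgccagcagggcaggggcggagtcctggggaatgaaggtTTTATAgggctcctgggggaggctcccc

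TATAAA was searched on both strands and was held by 11.5% of 35116 RefSeq promoter windows of 300 bases. The match of KLK3 lay at bases -28 to -23 from the start site, that of KLK2 at -34 to -29, and 1 window of KLK15 had one at -30 to -25. To show how alike the promoters of KLK3 and KLK2 are, the longest run of the KLK2 window that lies before the start site and in no annotated exon is printed beside the KLK3 stretch most like it. Both are 43 bases long, at chr19:50854737-50854779 for KLK3 and chr19:50873255-50873297 for KLK2, on the forward strand, with the bases that differ in capitals.
KLK3 run: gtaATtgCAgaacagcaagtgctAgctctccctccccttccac
KLK2 run: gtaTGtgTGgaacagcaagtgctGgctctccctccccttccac

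The runs share 38 of 43 bases. Over the 250 bases before the start, KLK3 and KLK2 were 79.2% identical in a global alignment, against 45.4% to 47.6% for the other pairs among KLK2, KLK3, KLK4 and KLK10. RefSeq windows were at hand for 8 of the 10 members, KLK1 and KLK8 being the exceptions. The estrogen response element (AGGTCA, any 3 bases, then TGACCT, with up to 2 mismatches) was held by 1.18% of all windows and the forkhead letters TGTTTAC, on either strand, by 3.42%, and neither was found in a window of the members. A match is a run of letters and was not tested for binding.

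KLK3 had 0 reads in all 3 libraries labelled MI-503, against 83181, 76166 and 80577 reads in the libraries labelled DMSO. In TPM this was 4492, 3982 and 3848 under the label DMSO. With 3 reads over the group as the most that a count of 0 allows, KLK3 was at least 69773-fold lower under the label MI-503. No library of the 3 labelled MI-503 came near the other group, and the level under the label DMSO was even, at 3703 ± 47.6 CPM (SD, n = 3).

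KLK2 encodes a trypsin-like protease that can activate the KLK3 proenzyme, and lies at chr19:50861568-50880567. It had 1, 0 and 0 reads in the libraries labelled MI-503, against 7781, 6641 and 8608 reads in those labelled DMSO. The single read lay in MI-503 replicate 1. The ratio of pooled levels was 20092-fold in favour of the label DMSO, with a 95% counting interval of 3606 to 793638, and without MI-503 replicate 1, where the other libraries of that label had no read, KLK2 was at least 4264-fold lower under the label MI-503. The TPM of KLK2 under the label DMSO was 501, 403 and 531.

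KLK4, at chr19:50906351-50911395, encodes a protease that matures tooth enamel and is also made in the prostate. It had 24, 7 and 3 reads in the libraries labelled MI-503 (1.57, 0.577 and 0.192 TPM), against 1837, 1947 and 1496 reads in those labelled DMSO (147, 138 and 98.2 TPM). KLK4 was thus the only member of the DMSO-high genes with reads in every library labelled MI-503. Its pooled level was 135-fold lower there, with a 95% counting interval of 96.8 to 196. MI-503 replicate 1 held 24 of the 34 reads of that label, and without it the level was 293-fold lower.

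KLK15, at chr19:50825289-50837213, encodes a trypsin-like protease that can activate the KLK3 proenzyme in vitro. It had 0 reads in all libraries labelled MI-503, against 134, 107 and 101 reads (7.81, 5.87 and 5.00 TPM) in those labelled DMSO. The groups did not overlap, and KLK15 was at least 99.5-fold lower under the label MI-503.

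On the other side, KLK10 was the highest kallikrein under the label MI-503. KLK10, first described as a gene of normal breast epithelium that is often silent in breast cancer, lies at chr19:51012739-51020175 on the reverse strand and its product has little or no known protease activity of its own. It had 440, 369 and 299 reads (17.4, 17.7 and 17.1 TPM) in the libraries labelled MI-503, against 0 reads in all libraries labelled DMSO. KLK10 was at least 423-fold higher under the label MI-503.

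KLK1, the tissue kallikrein that frees kinin peptides from kininogen, lies at the start of the cluster in map order, at chr19:50819146-50823787. It had 101, 109 and 84 reads (9.62, 10.9 and 9.77 TPM) in the libraries labelled MI-503, against 6, 11 and 21 reads (0.413, 0.917 and 1.79 TPM) in those labelled DMSO. KLK1 was the only gene of the 10 with at least 6 reads in all 6 libraries. Its pooled level was 8.87-fold higher under the label MI-503, with a 95% counting interval of 6.31 to 12.8.

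KLK8, or neuropsin, is known from skin and from the remodelling of synapses in mice. It lies at chr19:50996007-51002711 and had 89, 61 and 55 reads (7.78, 6.66 and 6.75 TPM) in the libraries labelled MI-503, against 1, 5 and 0 reads (0.0804, 0.389 and 0 TPM) in those labelled DMSO. The groups did not overlap. The pooled level was 39.2-fold higher under the label MI-503, with a 95% counting interval of 17.7 to 108. The value rests on DMSO replicate 2, which held 5 of the 6 reads of that label: without it the level was 160.0-fold higher, and without DMSO replicate 3 it was 25.9-fold higher.

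The remaining members were at or near the limit of detection. KLK5, which starts the protease cascade of skin shedding, had 6, 0 and 5 reads in the libraries labelled MI-503, against 0, 1 and 0 reads in those labelled DMSO, and the groups overlapped. The ratio of its pooled levels was 12.6, with a 95% counting interval of 1.83 to 543. Without DMSO replicate 2, which held the single read of that label, the ratio was 2.86 with 3 reads allowed under the label DMSO. That value takes the few reads under the label MI-503 as exact and is no firm lower limit. KLK11 had 0, 3 and 3 reads in the libraries labelled MI-503, against 0 reads in those labelled DMSO, and the groups overlapped at 0. With 3 reads allowed under the label DMSO, its pooled level was 2.29-fold higher under the label MI-503. This value, too, takes few reads as exact and is no firm lower limit. KLK6, known as neurosin from the nervous system, had 0 reads in all 6 libraries, which allows up to 0.0531 CPM over the libraries labelled MI-503 and 0.0463 CPM over those labelled DMSO.

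Ranked by mean TPM under the label MI-503, the order was KLK10 (17.4 ± 0.276 TPM), KLK1 (10.1 ± 0.724 TPM), KLK8 (7.06 ± 0.618 TPM) and KLK4 (0.781 ± 0.713 TPM; SD, n = 3 each). Each of the first 3 lay above the next gene in every library, whereas KLK4, KLK11, KLK5 and KLK2 overlapped with their neighbours in the order. Under the label DMSO the order was KLK3 (4107 ± 340 TPM), KLK2 (478 ± 67.0 TPM), KLK4 (128 ± 25.8 TPM), KLK15 (6.23 ± 1.44 TPM), KLK1 (1.04 ± 0.696 TPM) and KLK8 (0.156 ± 0.205 TPM; SD, n = 3 each). Here each of the first 5 lay above the next in every library, and KLK8 overlapped with KLK5 below it.

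Along the chromosome, KLK15, KLK3, KLK2 and KLK4 follow one another among the members, and all were higher under the label DMSO, whereas KLK1 on one flank and KLK8 and KLK10 on the other were higher under the label MI-503. KLKP1, a pseudogene between KLK2 and KLK4 that is annotated as 2 gene records, had 0 reads in the libraries labelled MI-503 under its long noncoding record, against 59, 50 and 38 reads in those labelled DMSO. KLKP1 was at least 42.7-fold lower under the label MI-503 (adjusted p = 7.79e-05). Its other record had no read.

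**Figure D2:**
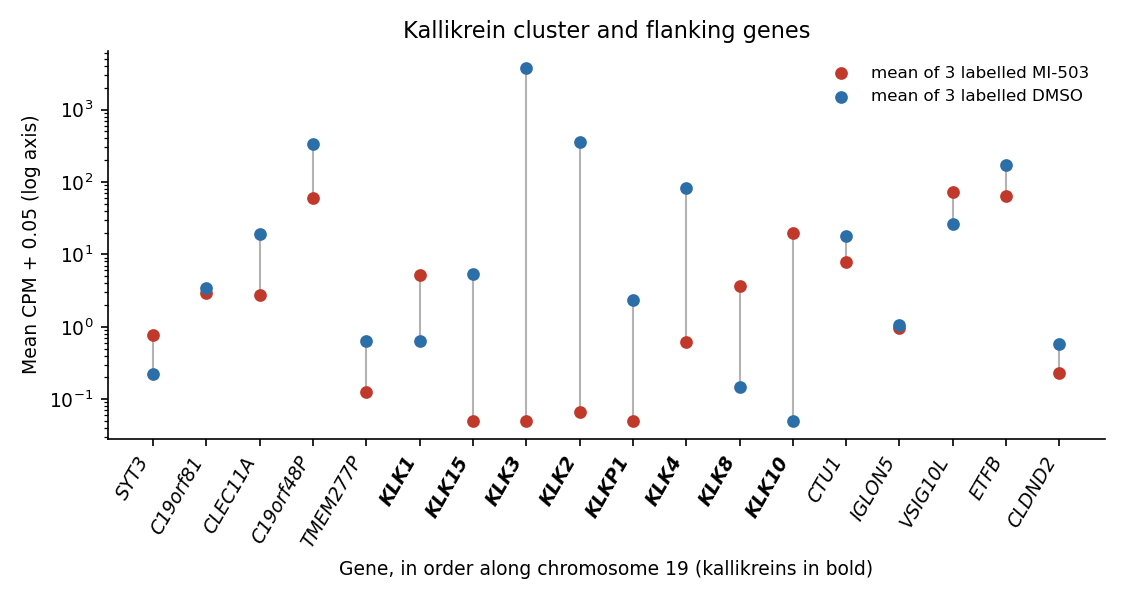
Mean CPM plus 0.05 on a log axis under the label MI-503 (red) and the label DMSO (blue), n = 3 libraries each, for the 18 genes of the kallikrein cluster and its 300 kb flanks with a mean of at least 0.5 CPM under either label, in map order and joined by a line within each gene. CPM takes no account of gene length, so the plot compares labels within a gene; the gaps at KLK3, KLK2, KLK10 and KLK4 were each wider than those at the flanking genes C19orf48P and VSIG10L.

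The other kallikreins were low throughout. KLK7, KLK13 and KLK14, all known from skin, had at most 8 reads in any library, KLKB1, the plasma kallikrein gene on chromosome 4, had at most 3, and KLK9 and KLK12 had none. Of the 8 records in this list, KLKP1 alone passed the filter on low counts.

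Within 300 kb of the cluster, 56 other genes were annotated and 8 were tested. Of these 8, 1 was higher and 5 were lower under the label MI-503, beside 31.7% and 31.2% of all genes tested. C19orf48P averaged 60.6 ± 4.63 CPM under the label MI-503 and 336 ± 37.0 CPM under the label DMSO (log2 fold change -2.47, standard error 0.16, adjusted p = 8.61e-07). CLEC11A, which encodes a growth factor of bone and blood cells, averaged 2.73 ± 0.421 CPM under the label MI-503 and 19.2 ± 4.69 CPM under the label DMSO (log2 fold change -2.82, standard error 0.27, adjusted p = 1.39e-05). ETFB, a mitochondrial electron carrier, and CTU1, which modifies transfer RNAs, were lower by less (log2 fold changes -1.41 and -1.21, adjusted p = 0.000121 and 0.00155). VSIG10L was the only neighbour called higher, at 73.8 ± 5.15 CPM under the label MI-503 and 25.9 ± 9.80 CPM under the label DMSO (log2 fold change 1.51, adjusted p = 0.000465). The median log2 fold change of the 8 neighbours was -1.31, beside -0.004 for all genes tested. Leaving out MI-503 replicate 2 or 3, or any 1 library labelled DMSO, gave 2 higher neighbours in place of 1.

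The reads of each kallikrein were shared out over several annotated transcripts. Salmon, the program behind these values, divides a read that matches several transcripts by estimated abundance, so shares of transcripts without sequence of their own rest on that estimate. The shares below are percentages of a gene's estimated reads.

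**Figure D3:**
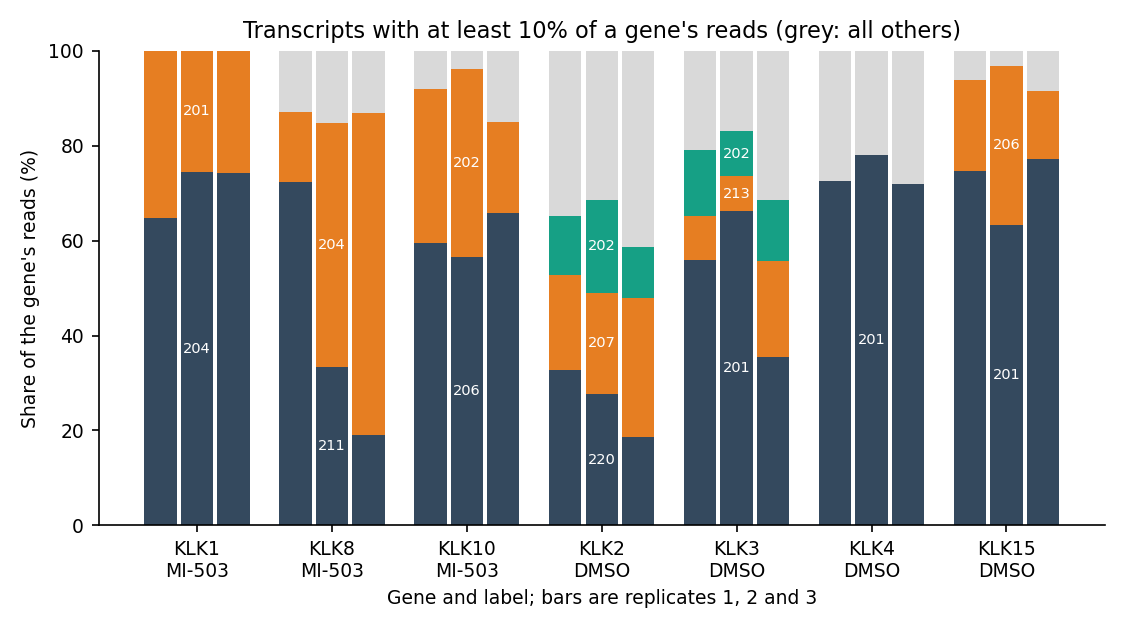
Share of each gene's reads (%) carried by the transcripts that hold at least 10% of them, under the label in which the gene is high; the 3 bars of a gene are replicates 1, 2 and 3, numbers in the bars are the transcript suffixes, and grey is the sum of all other transcripts. KLK3-201 held 35.4% to 66.2% of KLK3 reads, and KLK10-206 held 56.6% to 65.8% of KLK10 reads.

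For KLK3, the reference protein-coding transcript KLK3-201 carried 55.9%, 66.2% and 35.4% of the reads in the libraries labelled DMSO. KLK3-213, in which the first exon runs on through the first intron into the second exon, carried 9.20%, 7.35% and 20.4%. KLK3-202, a coding transcript whose last exon starts further upstream, carried 13.9%, 9.49% and 12.8%. DMSO replicate 3 had the lowest share of KLK3-201 and the highest of KLK3-213. KLK3-201 has no run of 31 bases that is found in no other transcript, whereas 31.5% of such runs in KLK3-213 are its own.

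For KLK2, most reads were assigned to transcripts that keep an intron. KLK2-220, which keeps the intron between the exons that are numbered 3 and 4 in coding transcripts, carried 32.7%, 27.6% and 18.6% of the reads in the libraries labelled DMSO. KLK2-207, which begins within the intron before the third exon, carried 20.0%, 21.4% and 29.3%. The coding transcript KLK2-202 carried 12.5%, 19.5% and 10.9%. KLK2-220 and KLK2-202 have no 31-base run of their own, so the split between them rests on salmon's estimate, and 13.3% of the runs of KLK2-207 are its own. Counting protein-coding transcripts alone, KLK2 averaged 53.9 CPM under the label DMSO in place of 355 CPM, and KLK3 averaged 2734 CPM in place of 3703 CPM. From these transcripts alone KLK2, then without a read under the label MI-503, was at least 1011-fold lower there.

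KLK4 and KLK15 were carried mainly by coding transcripts. KLK4-201 held 72.7%, 78.0% and 71.9% of KLK4 reads in the libraries labelled DMSO. KLK15-201 held 74.7%, 63.3% and 77.3% of KLK15 reads, and KLK15-206, which keeps an intron, held 19.1%, 33.5% and 14.2%.

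Under the label MI-503, the leading transcripts of KLK10 and KLK1 were not the reference ones. KLK10-206, annotated as a target of nonsense-mediated decay, carried 59.4%, 56.6% and 65.8% of KLK10 reads. Its first exon, at chr19:51018455-51018849, lies within the second intron of the reference transcript KLK10-202, which carried 32.6%, 39.5% and 19.1%. Of the 31-base runs of KLK10-206, 28.3% are its own. Counting coding transcripts alone, KLK10 averaged 7.17 CPM under the label MI-503 in place of 19.5 CPM, and was at least 157-fold higher there in place of at least 423-fold.

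KLK1-204, annotated as a retained intron, carried 64.7%, 74.5% and 74.1% of KLK1 reads in the libraries labelled MI-503, and the reference transcript KLK1-201 carried the rest, 35.3%, 25.5% and 25.9%. KLK1-204 begins within the second intron, with a first exon at chr19:50820154-50820849 that runs into the third exon of KLK1-201, and 46.0% of its 31-base runs are its own. In the libraries labelled DMSO, where KLK1 had 6, 11 and 21 reads, KLK1-204 carried 0%, 9.78% and 14.9% and KLK1-201 carried 45.3%, 62.6% and 71.0%. The shares of KLK1-204 did not overlap between the labels, on few reads under the label DMSO. Counting coding transcripts alone, KLK1 averaged 1.51 CPM under the label MI-503 in place of 5.20 CPM, and 0.386 CPM under the label DMSO in place of 0.586 CPM. Its pooled level was then 3.94-fold higher under the label MI-503, in place of 8.87-fold.

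KLK8 differed most between replicates. KLK8-211 carried 72.3%, 33.3% and 19.04% of KLK8 reads in the libraries labelled MI-503, and KLK8-204 carried 14.7%, 51.5% and 67.9%. Both are protein-coding and share their last exons, and under 6% of the runs of either are its own (5.41% for KLK8-211 and 0.098% for KLK8-204), so with 55 to 89 reads a library the split is not resolved.

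**Figure D4:**
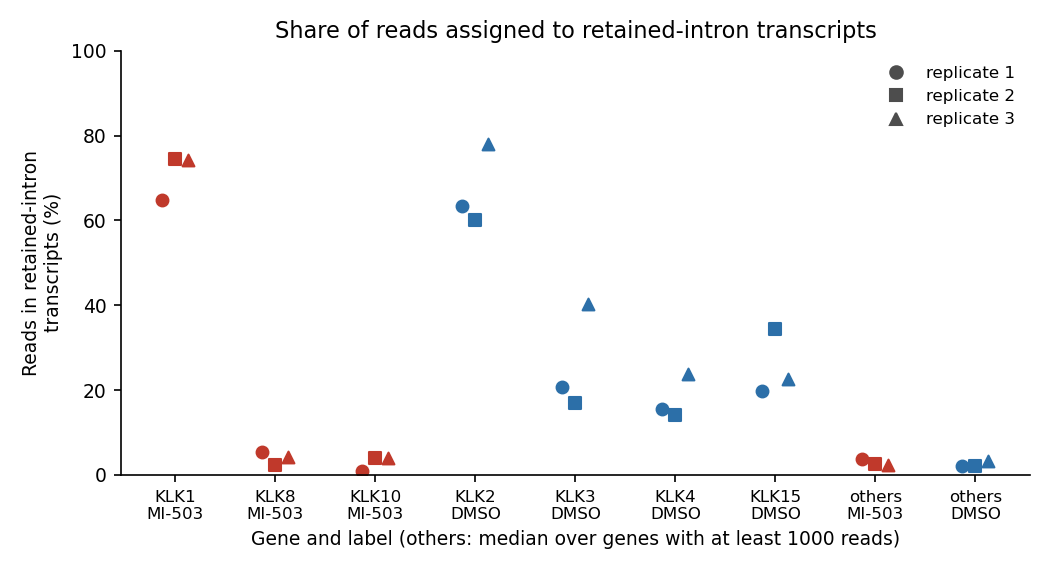
Share of reads (%) assigned to transcripts annotated as retained introns, for 7 kallikreins under the label in which each is high (red MI-503, blue DMSO, with a circle, a square and a triangle for replicates 1, 2 and 3). At the right is the median over 2191 protein-coding genes that have a retained-intron transcript and at least 1000 reads in each library. KLK2 stood at 60.03% to 78.1% and KLK1 at 64.7% to 74.5%, while the medians of other genes stood between 2.04% and 3.81%. KLK1, KLK8, KLK10 and KLK15 had fewer than 1000 reads in each library, outside the depth of those other genes.

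The share of reads in retained-intron transcripts was 63.3%, 60.03% and 78.1% for KLK2, 20.8%, 17.03% and 40.3% for KLK3, and 15.6%, 14.2% and 23.8% for KLK4 in the libraries labelled DMSO. The share of each of these genes was highest in DMSO replicate 3, whereas KLK15 had 19.9%, 34.5% and 22.7%. In the same libraries the median over 2191 protein-coding genes was 2.20%, 2.04% and 3.28%, again highest in replicate 3. Each of these genes has a retained-intron transcript and at least 1000 reads in every library. DMSO replicate 3 was the library with the highest mitochondrial share, and whether the state of that library accounts for the shares was not tested. KLK10 and KLK8 had 1.03% to 5.38% of reads in such transcripts under the label MI-503, where the median of other genes was 2.32% to 3.81%. Like KLK15, they had fewer than 1000 reads in each library, outside the depth of those other genes.

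Reads of the kallikreins could in part belong to other genes of like sequence. KLK3 and KLK2 share 60 runs of 31 bases, 1.22% of those of KLK3, and KLK1 and KLK15 share none with any gene. KLK8 shares 36.4% of its runs with a read-through gene without a symbol, and KLK10 shares 451 of 3763 runs (11.99%) with other genes, 187 of them with an antisense gene. The read-through gene and the antisense gene had 0 reads in every library. Whether the libraries kept the strand is not stated, and without it reads from the stretch where KLK10 and its antisense gene overlap cannot be told apart.

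Steroid receptors and lineage factors of breast and prostate, a list chosen with these data known, differed in both directions. HOXB13, a homeobox factor of prostate epithelium, had 1, 0 and 0 reads in the libraries labelled MI-503, against 13049, 12729 and 9848 reads in those labelled DMSO (log2 fold change -14.50, adjusted p = 1.35e-08). The value rests on 1 read in MI-503 replicate 1 and was -16.42 without that library. GATA2, a zinc finger factor of blood and prostate cells, averaged 41.3 ± 3.19 CPM under the label MI-503 and 308 ± 21.8 CPM under the label DMSO (log2 fold change -2.90, adjusted p = 2.39e-07). FOXA1, a pioneer factor of both breast and prostate, averaged 471 ± 89.4 CPM under the label MI-503 and 473 ± 101 CPM under the label DMSO (adjusted p = 0.98).

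ESR1, PGR, GATA3, NR3C1 and SPDEF were called higher. PGR, the progesterone receptor and itself a target of ESR1, averaged 1385 ± 132 CPM under the label MI-503 and 0.328 ± 0.252 CPM under the label DMSO (log2 fold change 12.03, adjusted p = 3.38e-08). NR3C1, the glucocorticoid receptor, averaged 18.8 ± 1.57 CPM under the label MI-503 and 0.483 ± 0.418 CPM under the label DMSO (log2 fold change 5.27, adjusted p = 5.80e-05, and 4.69 without DMSO replicate 3, which had no read). SPDEF, an epithelial factor of prostate and breast, averaged 296 ± 36.7 CPM under the label MI-503 and 144 ± 13.4 CPM under the label DMSO (log2 fold change 1.03, adjusted p = 0.00028), and NR3C2, the mineralocorticoid receptor, was not called (adjusted p = 0.322). HOXB13 and GATA2 went the same way as KLK3, KLK2, KLK4 and KLK15, and whether either sets those levels here was not tested.

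The genes whose pattern over the 6 libraries was nearest to KLK10, of 10707 protein-coding genes that reached a mean of 10 CPM under either label, were CCDC170, SLITRK4 and SYT1, at distances of 0.172, 0.199 and 0.204 on the centred log2(CPM + 0.5) scale. CCDC170, which lies next to ESR1, had 19.5, 18.3 and 18.99 CPM in the libraries labelled MI-503 and 0 CPM in those labelled DMSO. The nearest to KLK3 were HOXB13, FOLH1 and MME, at distances of 3.45, 3.93 and 4.07. Profiles were centred but not scaled, so the distance also reflects level. Under the label DMSO, KLK3 averaged 3703 CPM and HOXB13 551 CPM. The larger distances are therefore not read as a lack of genes with a pattern like that of KLK3. FOLH1, which encodes prostate-specific membrane antigen, had 0.292, 0.0522 and 0.119 CPM in the libraries labelled MI-503, against 673, 565 and 397 CPM in those labelled DMSO.

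Of 13 listed inhibitors that bind kallikreins in tissue and blood, 8 were not tested, 4 were higher and 1 was lower under the label MI-503. Of all tested genes, 31.7% were called higher. The median log2 fold change was 8.10, or 5.53 with SERPING1 at its bound. This list was chosen with these data known. SERPINA1, SPINK5 and SERPING1, with few or no reads under the label DMSO, passed the filter on low counts through the libraries labelled MI-503. Nothing is therefore read from the count or the median. SERPINA1, the alpha-1-antitrypsin gene, averaged 306 ± 62.5 CPM under the label MI-503 and 0.606 ± 0.292 CPM under the label DMSO (log2 fold change 8.97, adjusted p = 4.51e-08). SPINK5, which encodes the skin inhibitor LEKTI of KLK5 and KLK7, averaged 22.9 ± 3.35 CPM under the label MI-503 and 0.0785 ± 0.0732 CPM under the label DMSO (log2 fold change 8.10, adjusted p = 4.92e-07, and 8.79 without DMSO replicate 2). SERPINA3, whose product forms the main complex of prostate-specific antigen in blood, averaged 13.7 ± 3.28 CPM under the label MI-503 and 1.09 ± 0.843 CPM under the label DMSO (log2 fold change 3.64, adjusted p = 0.000145, and 4.47 without DMSO replicate 1). SERPING1, the inhibitor of plasma kallikrein, had 0 reads under the label DMSO and was at least 46.2-fold higher under the label MI-503. SERPINB6 was the gene called lower (log2 fold change -1.27, adjusted p = 0.00025).

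Kallikrein substrates and receptors went in both directions. Of 21 listed, 11 were tested, 2 were higher, 6 were lower and 3 were not called, with a median log2 fold change of -1.04, and leaving out DMSO replicate 3 gave 4 higher in place of 2. F2RL1, the protease-activated receptor that KLK5 and KLK4 cleave, averaged 5.18 ± 0.599 CPM under the label MI-503 and 159 ± 16.8 CPM under the label DMSO (log2 fold change -4.94, adjusted p = 3.74e-08). F2R, a receptor of the same family and the thrombin receptor, averaged 0.446 ± 0.338 CPM under the label MI-503 and 23.1 ± 5.72 CPM under the label DMSO (log2 fold change -5.72, adjusted p = 3.72e-06, and -6.45 without MI-503 replicate 3). MBP, a substrate of KLK6 in myelin, was also lower (log2 fold change -4.33, adjusted p = 3.58e-07). BDKRB2, the receptor for the kinins that KLK1 releases, averaged 8.94 ± 1.29 CPM under the label MI-503 and 1.45 ± 0.163 CPM under the label DMSO (log2 fold change 2.62, adjusted p = 4.16e-05).

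Other trypsin-like serine proteases were likewise divided, with 9 higher, 7 lower and 1 not called of 17 tested and 29 listed, and a median log2 fold change of 1.18. TMPRSS13 averaged 98.3 ± 4.42 CPM under the label MI-503 and 3.87 ± 0.547 CPM under the label DMSO (log2 fold change 4.66, adjusted p = 5.07e-08). ST14, or matriptase, a membrane protease of epithelia that can activate other proteases, averaged 661 ± 57.0 CPM under the label MI-503 and 192 ± 13.2 CPM under the label DMSO (log2 fold change 1.79, adjusted p = 6.00e-06). TMPRSS3 and PRSS22 were higher as well, with log2 fold changes of 9.35 and 4.64 (adjusted p = 4.63e-07 and 6.17e-06), that of TMPRSS3 being 11.15 without DMSO replicate 2. The counts of these lists are to be read beside the 62.9% of all genes that were called. Since the lists were chosen with these data known, the counts are a description only.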

How the data were processed

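RNA-seq of libraries titled T47D and labelled MI-503 or DMSO was analysed, 3 libraries each, grouped by label alone. The authors quantified transcripts with salmon in Illumina DRAGEN. For its version, the annotation release and the library strandedness, nothing was given in the sources used here, and the submitters' processing notes name the builds hg38 and GRCh38.p13. The deposited files hold estimated counts (reads per transcript, not normalized) and TPM, which the authors' program derived from them and the effective transcript lengths.

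The members and all gene lists were chosen with earlier results of these data known. Transcripts were matched to GENCODE release 44 by identifier (229321 of 232117, 98.8%, with at least 99.16% of reads per library), and expected counts were summed to 61279 genes and rounded. CPM were scaled by TMM (factors 0.934 to 1.053). The test was edgeR 4.0.16's quasi-likelihood test after filterByExpr with Benjamini-Hochberg adjustment, run under R 4.3.3, and log2 fold changes are MI-503 over DMSO. No blocking factor was used. It was tested on simulated counts first. Bounds use 3 reads over a group without reads and take the reads of the other group as exact. On few reads they are thus no firm lower limit. The 95% intervals are exact conditional intervals of pooled reads. Intervals cover the error of counting, and bounds cover that of the empty group alone. Neither covers the spread between libraries, because the reads of a label were pooled. PCR copies were not marked by molecular identifiers, so the counts can include copies.

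Genes named were all members, other kallikreins and steroid receptors and lineage factors, up to 4 genes of smallest adjusted p in each other list, called neighbours with at least 5 CPM, the 3 nearest patterns, and transcripts with at least 10% of a member's reads where it had 30 or more. Promoter windows ran from 250 bases before to 50 after RefSeq start sites (GRCh38.p14). No genome coordinate was converted. The alternatives were RLE or upper-quartile scaling, no filter, DESeq2 1.42.0, a replicate block, leaving out each library, library-size CPM, protein-coding transcripts only and shares of TPM. Some results that these rules take are not reported here.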

Additional observations from a re-analysis of the deposited data

How the results depend on the processing

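Of the 10 members, 5 had the higher mean CPM under the label MI-503 and 4 under the label DMSO in every scaling and with any library left out. Since the choice of members used this contrast, the unchanged split is not read as support. Counts over all genes stayed within 1.5 times in every alternative, with upper-quartile scaling moving the median log2 fold change to -0.10 (4827 higher, 5582 lower). Without a filter on low counts, 12 other serine proteases were lower, 3 basal markers were higher and 5 lower, and 4 neighbours were higher, more genes being tested. Leaving out each library in turn gave 2 to 4 substrates and receptors higher, the 4 without DMSO replicate 3, and 1 to 2 neighbours higher, with 2 without MI-503 replicate 2 or 3 or any 1 library labelled DMSO. The cause was not tested. No log2 fold change of a called named gene reversed, and that of FOXA1, which was not called, was -0.01 and lay between -0.14 and 0.20 without a library. KRT10, a keratin of the basal list, was called only without the filter. Same-numbered libraries did not deviate together (correlations -0.08, 0.11 and -0.09), so no sign of pairing by number was seen. With so few libraries this cannot show that the numbers carry no pairing. A replicate block gave 5071 genes higher and 4913 lower. Of 120 comparisons of member levels 7 moved by over 1 SD, 6 of them on counting protein-coding transcripts alone, and of 80 of transcript shares 6 did, all on taking shares of TPM. On that scale KLK10-202 held 15.04% of KLK10, and KLK2-202 held 5.44% of KLK2. Leaving out 1 of 3 libraries cannot shift a mean by over 1 SD. Those comparisons, which are among the 120 and the 80, were thus bound to count as unmoved and show no stability. Depth limits KLK5, KLK6 and KLK11, which had at most 6 reads in any library. Pooled folds of the members without each library and from coding transcripts alone were added after seeing the data. Leaving out a library of a label without reads lowered the bounds by construction, to at least 44426-fold for KLK3 (without MI-503 replicate 1), 63.3-fold for KLK15 (the same) and 279-fold for KLK10 (without DMSO replicate 1). That of KLK11 fell to 1.51-fold (without DMSO replicate 1), on too few reads to be a firm lower limit.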
